A study of Mus musculus with 4 samples.

Results

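Ly6 surface antigens and Plac8 were followed as the 5 genes Ly6c2, Ly6a, Ly6e, Ly6g and Plac8, which were looked up by name among the 16308 genes of the deposited count tables, where all 5 were found. The tables held CD45+ cells, that is leukocytes, from the muscularis externa of the small intestine, the muscle layer in which intestinal manipulation sets off an inflammation. They were measured with droplet-based single cell RNA sequencing, in which each captured transcript is counted once by its unique molecular identifier (UMI). The 4 libraries came from mice aged 12 weeks: wild-type (WT) C57BL/6J mice at 24 h and at 72 h after manipulation, and Ccr2-/-; B6.129S4-Ccr2tm1Ifc/J mice (CCR2 KO), which lack the chemokine receptor that monocytes use to leave the bone marrow, at the same times. All 4 groups had been operated on, several animals were pooled into each sample, and with 1 library per group no test between groups could be made. Where 4 values stand in a row they are those of WT at 24 h, then CCR2 KO at 24 h, then WT at 72 h and lastly CCR2 KO at 72 h. Intervals given here are 95% intervals for counting error only, which does not include differences between cells or animals.

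The Ly6 genes encode small, cysteine-rich proteins that are held on the outer cell surface by a lipid anchor, and antibodies to them are standard tools for sorting leukocytes. Ly6C marks classical blood monocytes, Ly6G marks neutrophils, and Ly6A, also called Sca-1, marks stem cells and many lymphocytes, while Ly6E is found on a broad range of cells. Plac8 encodes a small cysteine-rich intracellular protein that is abundant in monocytes, plasmacytoid dendritic cells and parts of the lymphocyte lineage. Several of these genes are known to respond to interferons.

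On the GRCm38 build, Ly6e (15:74955051-74959905, plus strand), Ly6a (15:74994877-74998031, minus strand), Ly6c2 (15:75108158-75111970, minus strand) and Ly6g (15:75155240-75159126, plus strand) are protein-coding genes that lie within 204 kb of chromosome 15, and Plac8 (5:100553725-100572245, minus strand) lies on chromosome 5. RefSeq windows of 250 bases before a transcription start were matched for Ly6c2, Ly6g and Plac8. They are shown because Ly6c2 and Plac8 went with interferon-stimulated genes, and Ly6g with neutrophil granule genes. This division was not clean. In neutrophil-like cells, Ly6c2 also went with granule genes except in WT at 24 h, and Ly6g with interferon-stimulated genes at 72 h. Printed from 5′ to 3′, and ending before both the RefSeq start and the annotated gene, the windows lie at chr15:75111972-75112221 (minus strand), chr15:75155011-75155239 (plus strand) and chr5:100572246-100572455 (minus strand) of GRCm38.p6. Capitals mark matches to a motif on either strand.
Ly6c2: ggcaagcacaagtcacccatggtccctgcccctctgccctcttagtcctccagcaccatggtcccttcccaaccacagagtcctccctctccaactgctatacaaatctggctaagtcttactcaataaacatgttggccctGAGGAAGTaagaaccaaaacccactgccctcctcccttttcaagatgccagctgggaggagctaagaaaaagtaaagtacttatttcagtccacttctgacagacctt
Ly6g: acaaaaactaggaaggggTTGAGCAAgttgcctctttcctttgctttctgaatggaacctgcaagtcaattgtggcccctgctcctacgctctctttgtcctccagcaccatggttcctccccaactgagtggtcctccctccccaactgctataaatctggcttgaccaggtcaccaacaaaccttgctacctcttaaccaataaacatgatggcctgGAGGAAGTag
Plac8: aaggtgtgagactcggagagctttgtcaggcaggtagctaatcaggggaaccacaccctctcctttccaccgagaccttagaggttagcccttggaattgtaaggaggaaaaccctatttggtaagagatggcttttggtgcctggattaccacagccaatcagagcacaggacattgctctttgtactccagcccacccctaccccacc
The motifs searched were GAAANNGAA, of the type bound by interferon regulatory factors, GAGGAAGT, of the ETS type, and TTGCNNAA, of the C/EBP type. They were held by 7.13%, 2.44% and 9.56% of the 32851 windows of 250 bases in the table. Ly6c2 held 1 ETS-type match, 108 to 101 bases before its start, and Ly6g held 1 ETS-type match 31 to 24 bases before its start and 1 C/EBP-type match 232 to 225 bases before it. Plac8 held no match in its 250 bases. The interferon-stimulated genes Isg15 and Ifit3, read in the same way, held 3 matches each to the first motif, those of Isg15 overlapping, and none of the 3 members held a match to it. Over their best ungapped overlap of 197 bases the windows of Ly6c2 and Ly6g were 51.8% identical. Found in the same way, the value was 33.3% for Ly6c2 and Plac8 and 35.8% for Ly6g and Plac8.

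The 3′ kit counts transcripts by their last bases, and these differ little between some Ly6 genes. Over the last 300 bases of the longest annotated transcript, Ly6c2 was 93.8% identical to Ly6c1, 82.6% to Ly6i, 81.8% to Ly6a and 79.9% to Ly6g, whereas Ly6e was at most 50.6% identical to any of the genes compared. Ly6c1, which marks blood endothelium and some lymphocytes, was listed with 22 UMIs over all cells against 5301 for Ly6c2. Reads shared between such genes could have been assigned to either or dropped, so levels of Ly6c2 are uncertain in this respect.

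Library sizes were 9736725 to 21206308 UMIs over 1048 to 1774 cells, and 4 cell barcodes occurred in 2 libraries. Cells were assigned to leukocyte classes one by one from fixed marker genes that include none of the 5 genes, which left 248 of 5811 cells without a class. The 2629 monocyte/Mφ-like cells were led by C1qb, Pf4 and Lyz2 and the 2376 neutrophil-like cells by S100a9, S100a8 and Retnlg, and the 10 most enriched genes of either class held no marker of another. Per library there were 1307, 229, 925 and 168 monocyte/Mφ-like cells, with medians of 14190 to 16366.5 UMIs, and 300, 1310, 191 and 575 neutrophil-like cells, with medians of 2054.5 to 3376 UMIs. Of the monocyte/Mφ-like cells, 92 lay in a Leiden cluster led by the dendritic cell genes Ccl17 and Cd209a, and 15.7% to 57.7% per library had over 5% mitochondrial UMIs, the highest share in CCR2 KO at 72 h. Ccr2 itself, in monocyte/Mφ-like cells and given as UMIs per 1000000 UMIs (CPM), was at 758 in WT and 92.9 in CCR2 KO at 24 h, and at 1063 and 80.9 at 72 h. The labels do not say which part of the gene is missing, so residual 3′ counts neither check nor contradict them.

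Each of the 5 genes had its own distribution over leukocyte classes. The class levels below are pooled CPM, and ranges run over libraries with at least 10 cells of the class.

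**Figure D1:**
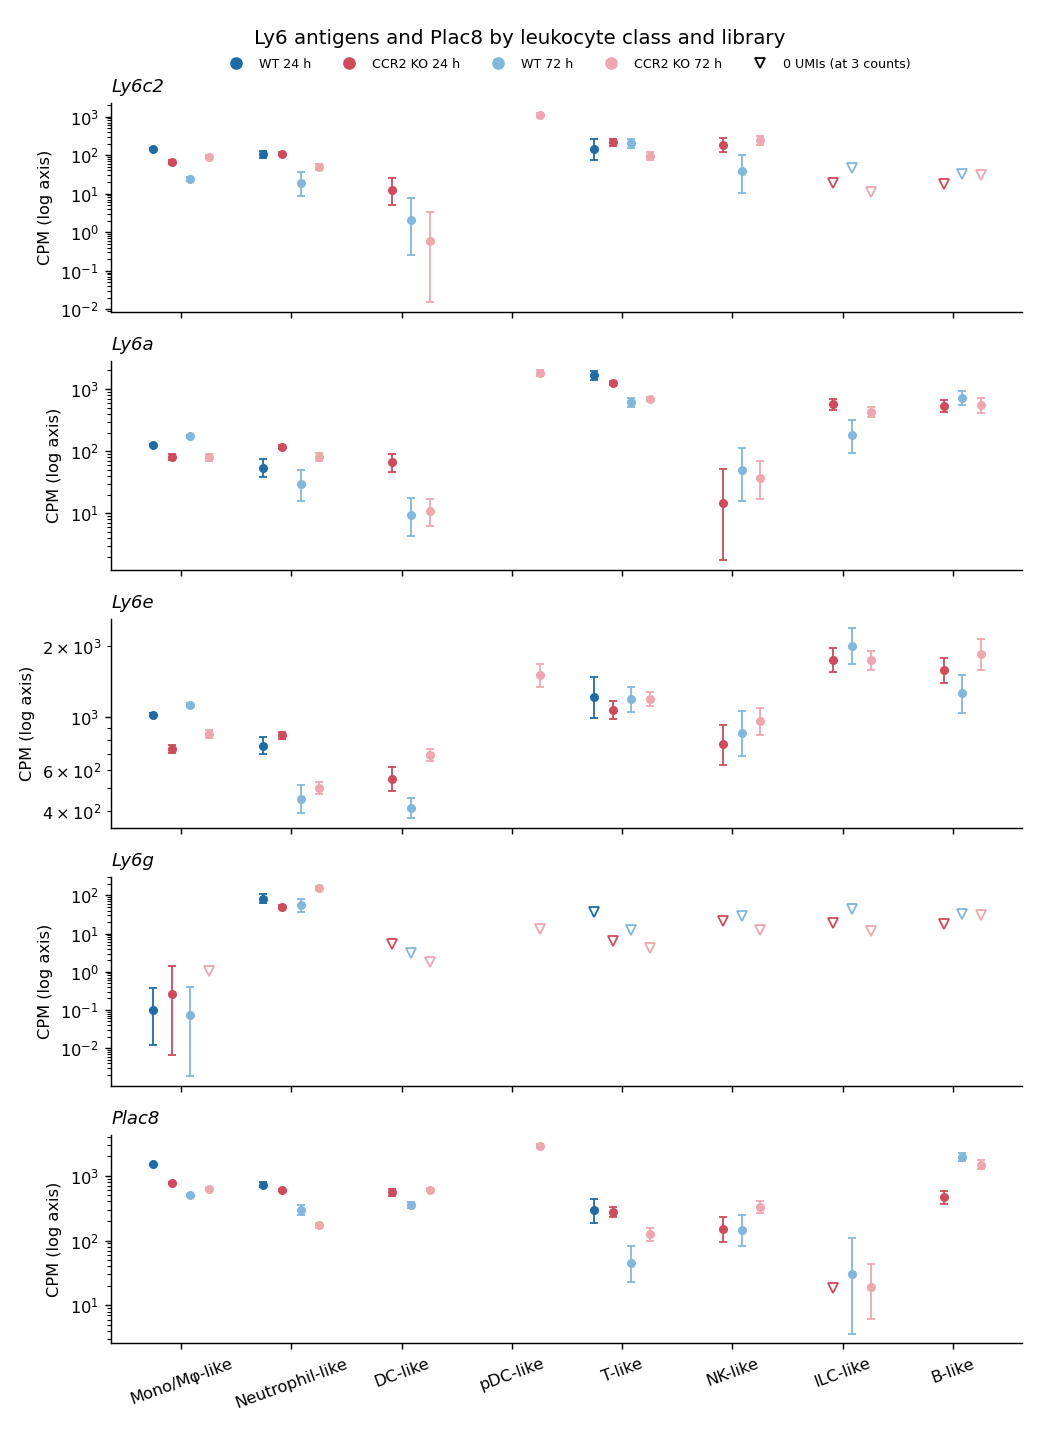
Pooled CPM (log axis) of the 5 genes in each leukocyte class, one point per library with at least 10 cells of the class and bars for the 95% Poisson interval, with open triangles at the level of 3 counts where no UMI was found. Ly6g stands at 49.4 to 156 CPM in neutrophil-like cells and at 0.257 CPM or less in monocyte/Mφ-like cells, while Ly6e is found in every class shown.

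Ly6g was the most restricted gene. Neutrophil-like cells held 88.2%, 99.5%, 96.3% and 99.7% of its UMIs. T, NK and innate lymphoid-like cells held 0 UMIs over 328 cells, dendritic-like cells 0 over 130 and B-like cells 0 over 58. The 2629 monocyte/Mφ-like cells held 4 UMIs and the 19 plasmacytoid dendritic-like cells held 1.

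Ly6c2 was highest in plasmacytoid dendritic-like cells, which produce type I interferon, at 1132 CPM (997 to 1280) in the 13 cells of CCR2 KO at 72 h. The 6 other such cells came from the remaining libraries, with 37 UMIs in 1 cell of WT 24 h, 141 in 4 cells of CCR2 KO 24 h and 0 in 1 cell of WT 72 h. Levels were 39.4 to 243 CPM in NK-like, 97.2 to 217 in T-like, 24.3 to 145 in monocyte/Mφ-like and 18.9 to 109 in neutrophil-like cells, ranges that overlapped between all neighbours in this order. Dendritic-like cells were at 0.596 to 12.6 CPM. B-like and innate lymphoid-like cells held no Ly6c2 UMI in any library, which allows up to 7.59 and 5.95 CPM (3 counts) over the 58 and 61 cells.

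Within T-like cells Ly6c2 went with the CD8 co-receptor genes. The 36 cells with Cd8a or Cd8b1 and no Cd4 were at 473 CPM (394 to 564) over all libraries, and at 289, 488, 596 and 436 CPM in the 5, 14, 7 and 10 such cells of the 4 libraries. The 58 cells with Cd4 alone were at 9.64 CPM (3.13 to 22.5), with 5 UMIs in 2 cells. The CD8 level was carried by 8 of the 36 cells. The 2 kinds of cell were close in Ly6e, at 931 CPM (818 to 1056) and 1088 (999.8 to 1181), and Ly6a was higher in the Cd4 cells, at 1121 (1031 to 1216) against 629.8 (537 to 734).

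Ly6a was highest in lymphocytes and plasmacytoid dendritic-like cells. Its level was 1820 CPM (1648 to 2005) in plasmacytoid dendritic-like cells of CCR2 KO at 72 h, 617 to 1683 in T-like, 538 to 723 in B-like and 180 to 569 in innate lymphoid-like cells. The last range lay above that of monocyte/Mφ-like cells, 80.3 to 173 CPM, which in turn overlapped the range of 29.4 to 117 in neutrophil-like cells. NK-like cells were at 14.5 to 49.2 CPM and dendritic-like cells at 9.42 to 66.7, ranges that overlapped each other and that of neutrophil-like cells. T-like cells had 1683 and 1246 CPM at 24 h against 617 and 695 at 72 h, in WT and CCR2 KO respectively, so that both 24 h libraries were above both 72 h libraries, though WT at 24 h held only 13 such cells and 1 of them gave 71% of the UMIs.

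Ly6e was found in every class, from 415 to 690 CPM in dendritic-like cells and 451 to 836 in neutrophil-like cells through 768 to 960 in NK-like, 732 to 1124 in monocyte/Mφ-like and 1074 to 1216 in T-like cells. B-like cells were at 1259 to 1843 and innate lymphoid-like cells at 1741 to 2000 CPM. Ranges of neighbours in this order overlapped, except that every B-like library was above every T-like library.

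Plac8 was at 2836 CPM (2621 to 3065) in plasmacytoid dendritic-like cells of CCR2 KO at 72 h, at 462 to 1960 in B-like, 507 to 1517 in monocyte/Mφ-like, 356 to 611 in dendritic-like and 171 to 729 in neutrophil-like cells. NK-like cells were at 148 to 330 and T-like cells at 45.6 to 295 CPM. Innate lymphoid-like cells held 7 UMIs in 61 cells, 13.9 CPM (5.58 to 28.6), and their range of 0 to 30.1 CPM lay below that of every other class named here.

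The mix of cells differed between genotypes, and so did the cells that each gene's UMIs came from. Of the Ly6c2 UMIs, monocyte/Mφ-like cells gave 95.1% in WT at 24 h and 79.3% at 72 h, but 24.1% and 33.5% in CCR2 KO. In CCR2 KO at 24 h neutrophil-like cells gave 41.7% of them, and at 72 h the 13 plasmacytoid dendritic-like cells gave 31.7%. For Ly6a, T-like cells gave 27.8% and 29.8% of the UMIs in CCR2 KO against 4.67% and 5.6% in WT. Levels over whole libraries therefore compare different cells, and genotypes were compared within classes.

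In monocyte/Mφ-like cells Ly6c2 was at 145 CPM (139 to 150) in WT 24 h, 66.2 (58.4 to 74.8) in CCR2 KO 24 h, 24.3 (21.7 to 27) in WT 72 h and 92.2 (81.5 to 104) in CCR2 KO 72 h. WT was thus the higher genotype at 24 h and the lower one at 72 h. The log2 ratio of CCR2 KO to WT was -1.13 (-1.32 to -0.94) at 24 h and 1.93 (1.69 to 2.16) at 72 h. The UMIs at 72 h sat in few cells, 10.9% of 925 in WT and 11.9% of 168 in CCR2 KO, where a single cell gave 24% of them.

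Plac8 in the same cells was at 1517 CPM (1500.1 to 1534), 777 (750 to 806), 507 (495 to 519) and 626 (597 to 655) in the 4 libraries. It too was higher in WT at 24 h, with a log2 ratio of -0.96 (-1.02 to -0.91), and slightly lower in WT at 72 h, with a ratio of 0.30 (0.23 to 0.38) that ran from 0.07 to 1.08 under other processing. After thinning each cell to 1000 UMIs, Plac8 was detected at 24 h in 58.1% (55.4 to 60.8) of these cells in WT and in 31.7% (25.7 to 38.2) in CCR2 KO. At 72 h these shares were 24.6% (21.8 to 27.5) and 18.4% (12.8 to 25.2), the opposite order to the CPM, so no order is read from them. Without thinning the shares were 89%, 59.8%, 59.7% and 41.7%, and innate lymphoid-like cells, the class closest to lacking the gene, held it in 0 of 20, 0 of 11 and 1 of 28 thinned cells in the libraries with at least 10 such cells.

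Ly6a was at 128 CPM (123 to 133) in WT 24 h, 81.4 (72.7 to 90.9) in CCR2 KO 24 h, 173 (166 to 180) in WT 72 h and 80.3 (70.3 to 91.2) in CCR2 KO 72 h, and Ly6e at 1025 (1011 to 1040), 732 (706 to 760), 1124 (1106 to 1142) and 852 (819 to 886). Over the whole class both were higher in WT at both times. The log2 ratio of CCR2 KO to WT was -0.65 (-0.82 to -0.48) and -1.11 (-1.31 to -0.91) for Ly6a, and -0.49 (-0.54 to -0.43) and -0.40 (-0.46 to -0.34) for Ly6e.

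A gene was called past the fold when it differed 2-fold or more with at least 50 CPM in 1 of the 2 libraries. Between CCR2 KO and WT monocyte/Mφ-like cells 1 of the 4 members tested, Ly6c2, was past it at 24 h, where 4.2% of all 3237 genes tested were, and 2 of 4, Ly6c2 and Ly6a, at 72 h, against 7.55% of 3455. From 24 h to 72 h in WT, Ly6c2 and Plac8 were past it, 2 of 4 members against 13.9% of 3454 genes, with log2 ratios of -2.58 (-2.75 to -2.41) and -1.58 (-1.62 to -1.54). In CCR2 KO none of the 4 was, against 12% of 3503 genes: Ly6c2 differed by 0.48 (0.23 to 0.73) and Plac8 by -0.31 (-0.40 to -0.23) on the log2 scale. Neither direction in CCR2 KO was stable, since the Ly6c2 ratio was -0.07 with every cell weighted equally and the Plac8 ratio was 0.44 with cells over 5% mitochondrial UMIs left out.

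**Figure D2:**
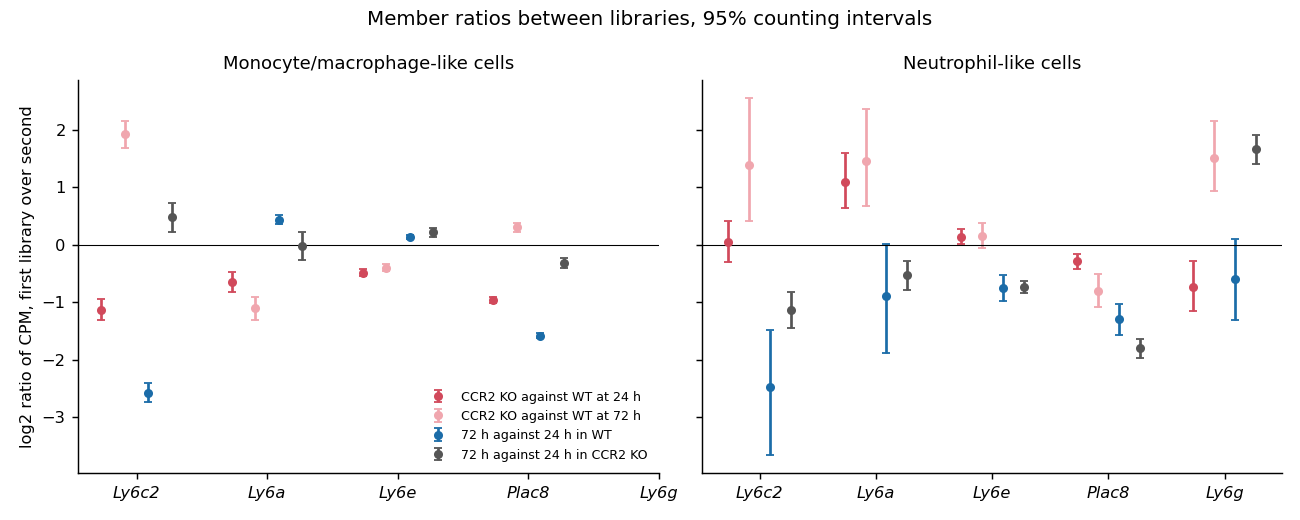
Log2 ratio of CPM between 2 libraries for each gene in monocyte/Mφ-like cells (left, Ly6g not plotted because 4 UMIs were found) and neutrophil-like cells (right), with 95% counting intervals and a line at no difference. In monocyte/Mφ-like cells the Ly6c2 ratio of CCR2 KO to WT is -1.13 at 24 h and 1.93 at 72 h.

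The monocyte/Mφ-like cells were then split by whether monocyte genes such as Hp, Chil3 and Vcan or Mφ genes such as C1qa, Mrc1 and Apoe scored higher, with 201 of 2629 cells within 0.05 of equal scores. The monocyte side held 544, 83, 50 and 52 cells, that is 41.6%, 36.2%, 5.41% and 31% of the class. At 72 h the monocyte share was thus much larger in CCR2 KO than in WT, out of far fewer cells.

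Ly6c2 on the monocyte side was at 173 CPM (164 to 183), 121 (103 to 141), 199.8 (168 to 236) and 288 (254 to 324), and on the Mφ side at 125 (119 to 132), 37.1 (29.9 to 45.4), 14.7 (12.7 to 16.9) and 2 (0.544 to 5.11). The monocyte side was higher in every library, and the gap was smallest in WT at 24 h, where the log2 ratio of the sides was 0.47 (0.36 to 0.58), and widest in CCR2 KO at 72 h, at 7.17 (5.80 to 9.06). On the Mφ side CCR2 KO was below WT at both times, with log2 ratios of -1.76 (-2.07 to -1.45) and -2.88 (-4.77 to -1.5). Of the 270 Ly6c2 UMIs of the class in CCR2 KO at 72 h, 4 lay on the Mφ side and 266 in 16 cells of the monocyte side. On the monocyte side the ratio at 72 h was 0.53 (0.23 to 0.83), but it was -0.06 with Leiden classes, which leave the cluster led by Ccl17 and Cd209a unnamed, and 0.997 with a stricter class gate, so no order of the genotypes is read there.

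**Figure D3:**
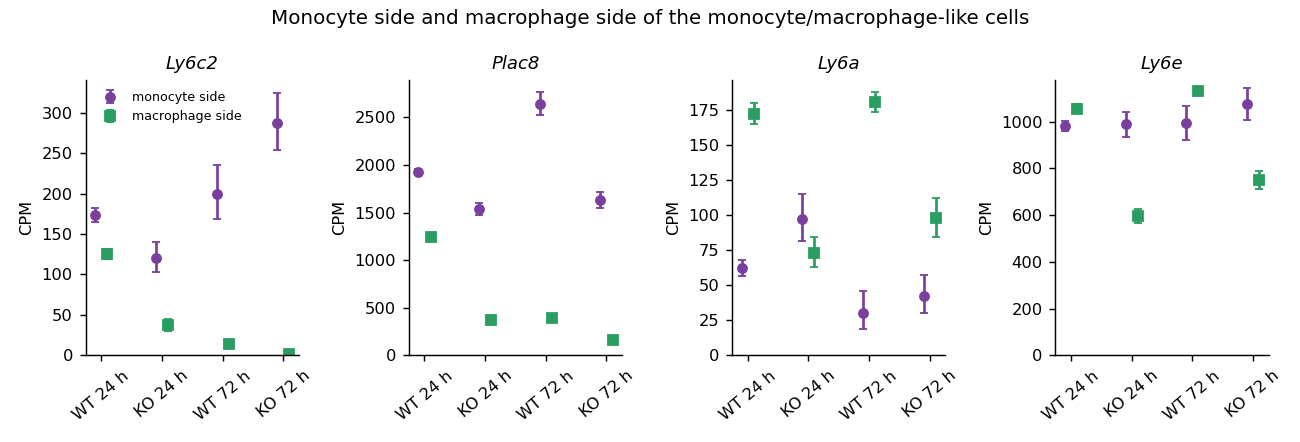
Pooled CPM of Ly6c2, Plac8, Ly6a and Ly6e on the monocyte side (circles) and the macrophage side (squares) of monocyte/Mφ-like cells in the 4 libraries, with 95% Poisson intervals on linear axes that start at 0. Ly6c2 and Plac8 are higher on the monocyte side in all 4 libraries, and the Mφ-side Ly6c2 level of CCR2 KO at 72 h is 2 CPM.

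Plac8 followed the same split with a higher floor. It was at 1925 CPM (1894 to 1955), 1538 (1472 to 1605), 2641 (2522 to 2764) and 1631 (1550 to 1715) on the monocyte side, and at 1240 (1220 to 1260), 370 (347 to 395), 391 (380 to 402) and 162 (145 to 180) on the Mφ side. CCR2 KO was below WT on both sides at both times, with log2 ratios of -0.32 (-0.39 to -0.26) and -0.70 (-0.79 to -0.60) on the monocyte side and -1.74 (-1.84 to -1.65) and -1.27 (-1.44 to -1.11) on the Mφ side. All of these kept their sign with Leiden classes, a stricter gate, at most 5% mitochondrial UMIs or the highest doublet scores left out. The small excess of Plac8 in the whole class of CCR2 KO at 72 h thus had the opposite sign within each side.

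Ly6a had the opposite pattern. It was lower on the monocyte side than on the Mφ side in WT, at 62.1 against 172 CPM at 24 h and 30 against 181 at 72 h, and in CCR2 KO at 72 h, at 42.2 against 97.8. In CCR2 KO at 24 h the monocyte side was higher, at 97.2 against 72.9 CPM, but 1 cell gave 36% of those UMIs. The Ly6a log2 ratio of CCR2 KO to WT was -1.24 (-1.47 to -1.02) at 24 h and -0.89 (-1.10 to -0.67) at 72 h on the Mφ side. For the monocyte side it was 0.65 (0.36 to 0.93) at 24 h, a value that includes the 1 cell with 36% of the UMIs. At 72 h it was 0.49 (-0.31 to 1.33) there, an interval that includes 0. No order of the genotypes is therefore read for Ly6a on the monocyte side, and the difference between the sides was not tested. Ly6e on the monocyte side was at 982 to 1074 CPM in all 4 libraries, whereas on the Mφ side it was at 1055 and 1131 in WT and at 596 and 750 in CCR2 KO. The Ly6e log2 ratio of CCR2 KO to WT was -0.82 (-0.90 to -0.75) and -0.59 (-0.67 to -0.52) on the Mφ side, and on the monocyte side its intervals, -0.08 to 0.09 at 24 h and -0.03 to 0.26 at 72 h, included 0. Whether the sides differed in this respect was not tested.

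Markers of other classes were present on both sides. The 8 neutrophil markers summed to 1128, 255, 218 and 1351 CPM on the monocyte side of the 4 libraries, and to 183 to 251 CPM on the Mφ side, with 7 or 8 of 8 detected. Neutrophil-like cells themselves had 71694 to 114002 CPM. The 8 plasmacytoid dendritic cell markers summed to 62.7 to 152 CPM on the monocyte side and 66.2 to 173 on the Mφ side, and the 8 dendritic cell markers to 40.7, 244, 121 and 271 CPM on the monocyte side and 4.34 to 87.8 on the Mφ side. Between 3 and 8 markers of these lists were detected. Their part in the Ly6c2 level of the monocyte side was not tested. Ly6g had 2 UMIs on the monocyte side of WT at 24 h (0.249 CPM) and none there in the other 3 libraries.

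In neutrophil-like cells Ly6g was at 81.9 CPM (62.5 to 105) in WT 24 h, 49.4 (42.8 to 56.7) in CCR2 KO 24 h, 54.5 (35.6 to 79.9) in WT 72 h and 156 (140 to 174) in CCR2 KO 72 h. CCR2 KO was lower than WT at 24 h, with a log2 ratio of -0.73 (-1.15 to -0.29), and higher at 72 h, at 1.52 (0.94 to 2.15). WT at 72 h rested on 26 UMIs in 9 of 191 cells, 1 of which gave 35% of them. After thinning, Ly6g was found in 4.27% (2.23 to 7.34), 3.02% (2.16 to 4.1), 1.64% (0.339 to 4.72) and 5.37% (3.63 to 7.62) of neutrophil-like cells, against 0 of 1299, 0 of 224, 0 of 915 and 0 of 163 monocyte/Mφ-like cells. Without thinning the neutrophil shares were 9.33%, 6.11%, 4.71% and 12.9%.

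Ly6g was concentrated in cells that carried granule transcripts. Neutrophils make such transcripts in the bone marrow and lose them with age, but the age of the cells was not measured here. Cells were split at a score of 0.3 for Retnlg, Mmp8, Ltf, Lcn2, Camp and Ngp, and 275 of 2376 lay within 0.05 of it. The granule-gene cells were 188, 286, 41 and 139, with Ly6g at 108 CPM (81.8 to 139), 140 (119 to 164), 179 (113 to 269) and 391 (349 to 436). The other neutrophil-like cells were at 5.44 (0.138 to 30.3), 16 (11.8 to 21.2), 8.61 (1.78 to 25.2) and 16.7 (10.6 to 25.1) CPM, so the intervals were apart in every library. The log2 ratio of the granule-gene cells to the others was 3.13 (2.65 to 3.63) in CCR2 KO 24 h and 4.55 (3.94 to 5.23) in CCR2 KO 72 h. Median depth was 2590.5 to 5682 UMIs in the first and 1508 to 3014 in the second kind of cell.

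**Figure D4:**
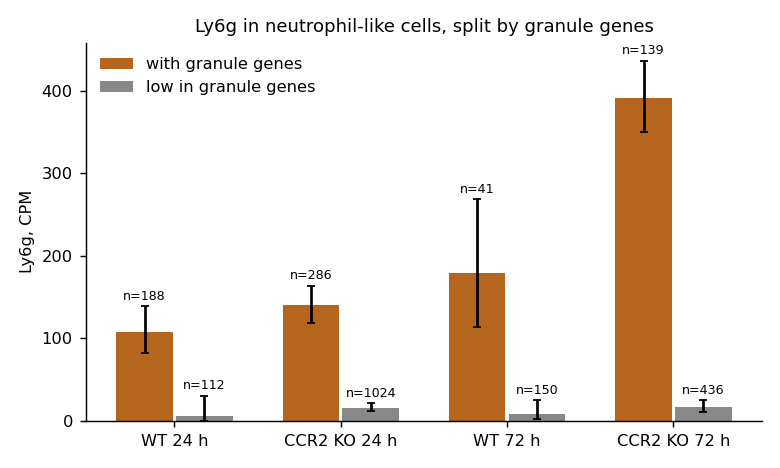
Pooled Ly6g CPM in neutrophil-like cells with granule genes (brown) and low in them (grey) in the 4 libraries, with 95% Poisson intervals and the number of cells above each bar. Granule-gene cells stand at 108 to 391 CPM and the others at 5.44 to 16.7 CPM.

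Within granule-gene cells the direction at 24 h was no longer that of the whole class. The log2 ratio of CCR2 KO to WT was 0.38 (-0.06 to 0.84) at 24 h, an interval that includes 0, and 1.13 (0.52 to 1.81) at 72 h. Of the 6 granule genes, the 4 tested in the whole class at 24 h were all 2-fold or more lower in CCR2 KO, with a median log2 ratio of -3.22, whereas at 72 h none of 3 was past the fold and the median was 0.91. From 24 h to 72 h all 4 were lower in WT, with a median of -3.17, and 1 of 3 was higher in CCR2 KO, with a median of 0.74. Of all genes tested, 7.22% at 24 h and 2.34% at 72 h were past the fold between genotypes. Over time these shares were 31.1% in WT and 21.2% in CCR2 KO. Cells with a Siglecf UMI, a gene of eosinophils and of some tissue neutrophils, were lower in Ly6g than the rest in CCR2 KO, at 21.3 against 54.3 CPM at 24 h and 29.6 against 265 at 72 h, and in WT at 72 h, at 19.7 against 80.2. The 24 such cells of WT 24 h were at 90.8 CPM (29.5 to 212) against 81.2 (61.2 to 106). No cell was gated as an eosinophil. Ly6c2 was also higher in granule-gene cells at 72 h, at 54.5 against 5.74 CPM in WT and 94.1 against 23.2 in CCR2 KO. The WT values rested on 7 and 2 UMIs, with a log2 ratio of 3.25 (0.85 to 6.55). In CCR2 KO at 24 h Ly6c2 was at 152 against 92.6 CPM, a log2 ratio of 0.71 (0.43 to 0.99). In WT at 24 h the ratio was -0.16 (-0.91 to 0.64). The intervals of the Plac8 ratio between the 2 kinds of cell included 0 in all 4 libraries.

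The other 4 genes were also present in neutrophil-like cells. Ly6c2 was at 105 CPM (83 to 131), 109 (98.7 to 119), 18.9 (8.63 to 35.8) and 49.6 (40.8 to 59.9), and Plac8 at 729 (668 to 793), 596 (573 to 620), 298 (251 to 351) and 171 (154 to 189). Both genes were higher in both 24 h libraries than in both 72 h libraries. Ly6e, at 759, 836, 451 and 504 CPM, had the same order of times. Ly6a, at 54.6 (39 to 74.4), 117 (107 to 128), 29.4 (16 to 49.2) and 81.1 (69.6 to 93.9) CPM, was higher in CCR2 KO at both times, with log2 ratios of 1.1 (0.63 to 1.60) and 1.47 (0.68 to 2.37), the opposite of its order in the whole monocyte/Mφ-like class. At 24 h this held within granule-gene cells, where WT had 29.2 and CCR2 KO 114 CPM, a log2 ratio of 1.96 (1.21 to 2.81), but not within the others, at 131 and 118 CPM with a ratio of -0.14 (-0.74 to 0.52). The granule-gene cells were 188 of 300 in WT and 286 of 1310 in CCR2 KO. At 72 h the ratio was 0.59 (-0.73 to 2.28) within granule-gene cells and 1.87 (0.90 to 3.03) within the others.

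Over time, 2 of 5 members in WT, Ly6c2 and Plac8, and 3 of 5 in CCR2 KO, Ly6c2, Plac8 and Ly6g, were past the fold in neutrophil-like cells, where 31.1% of 3154 and 21.2% of 3111 genes were. The log2 ratios of 72 h to 24 h were -2.48 (-3.66 to -1.48) and -1.13 (-1.44 to -0.82) for Ly6c2, -1.29 (-1.57 to -1.02) and -1.80 (-1.96 to -1.65) for Plac8, and -0.59 (-1.31 to 0.10) and 1.66 (1.41 to 1.92) for Ly6g, in WT and CCR2 KO. The median over all genes tested was itself shifted, by 0.42 in WT and 0.23 in CCR2 KO. With median-of-ratios scaling the values were -3.07 and -1.60 for Ly6c2, -1.88 and -2.28 for Plac8, and -1.18 and 1.19 for Ly6g. Between genotypes Ly6a was past the fold at 24 h, 1 of 5 members against 7.22% of 2577 genes, and Ly6a and Ly6g at 72 h, 2 of 4 against 2.34% of 3206. The shares over all genes thus differ widely between comparisons, and 1 to 3 members called is not a result about the 5 genes as a group.

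Within a library, levels of the members were also set against interferon-stimulated genes. In each class and library the cells were ranked by the share of their UMIs in 14 such genes, among them Isg15, Ifit1, Rsad2 and Irf7, and cut into 3 groups of like size, of which the highest (ISG-high) and the lowest (ISG-low) were compared. None of the 5 members is on that list. In monocyte/Mφ-like cells Ly6a was at 265 against 19.5 CPM in WT 24 h, 133 against 32.8 in CCR2 KO 24 h, 375 against 32.1 in WT 72 h and 150 against 28.8 in CCR2 KO 72 h. ISG-high cells were therefore above ISG-low cells in every library, with log2 ratios from 2.02 (1.52 to 2.55) to 3.76 (3.50 to 4.04).

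**Figure D5:**
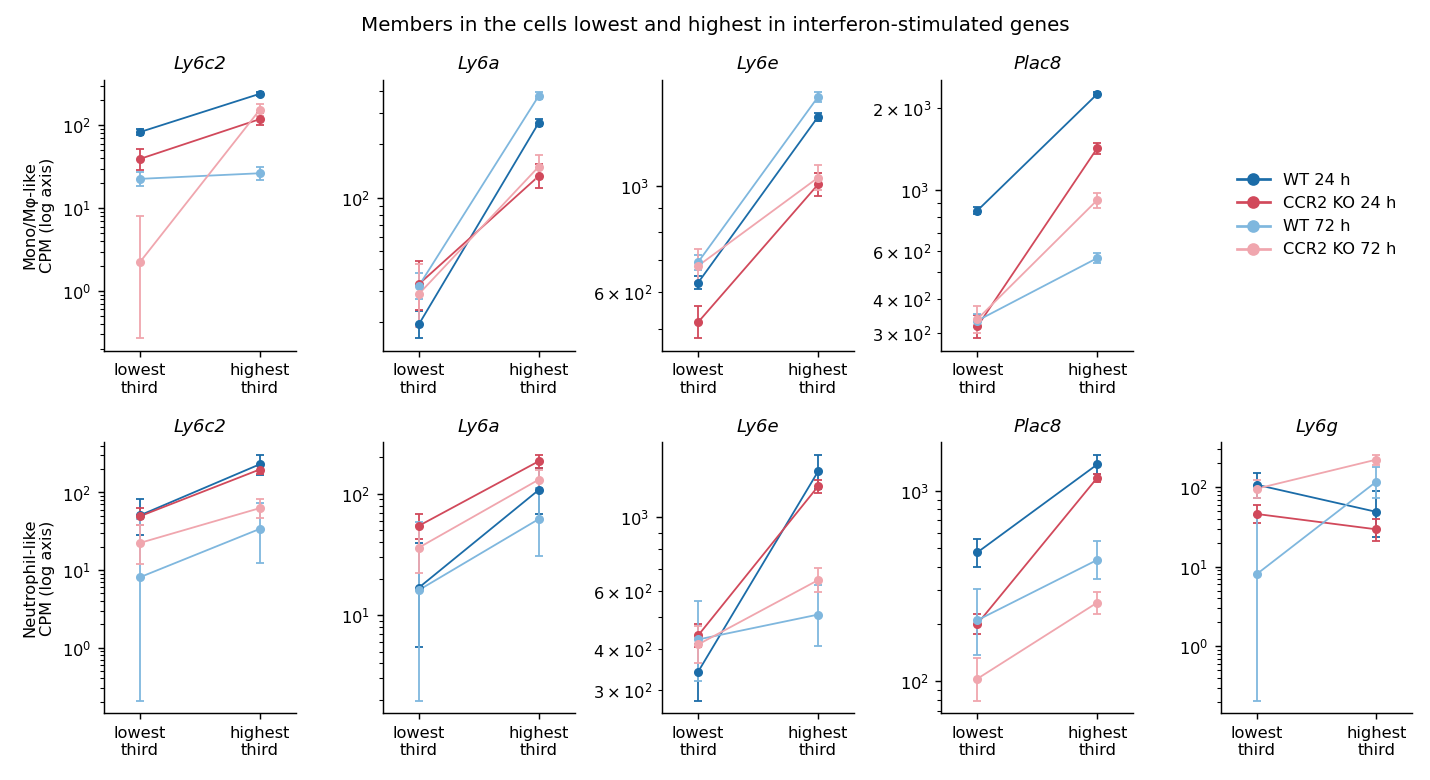
Pooled CPM (log axes) in ISG-low and ISG-high cells, for monocyte/Mφ-like cells (top) and neutrophil-like cells (bottom), one line per library with 95% Poisson intervals. Ly6c2, Ly6a, Ly6e and Plac8 have higher values in ISG-high cells in all 8 class-and-library pairs. In WT at 72 h the interval of the ratio includes 0 for Ly6c2 in both classes, and for Ly6a and Ly6e in neutrophil-like cells. Ly6g in neutrophil-like cells is lower in ISG-high cells in both 24 h libraries and higher in both 72 h libraries.

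Ly6e and Plac8 had the same direction in all 4 libraries. Ly6e was at 1399 against 627 CPM, 1008 against 518, 1541 against 692 and 1042 against 680 in monocyte/Mφ-like cells, and Plac8 at 2251 against 842, 1426 against 317, 564 against 333 and 921 against 337. Ly6c2 was at 239 against 82.5 CPM, 118 against 39.1, 26.3 against 22.5 and 153 against 2.22, and in WT at 72 h its log2 ratio of 0.22 (-0.17 to 0.63) included 0. The ISG-low cells included 44, 19, 63 and 16 with no UMI of the list. In CCR2 KO at 72 h the median depth was 16656 UMIs in ISG-high and 11108 in ISG-low cells, and in the other 3 libraries the medians differed by under 1000 UMIs.

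The relation was also seen within each side of the split. On the Mφ side Ly6a was at 349 against 41 CPM in WT 24 h and 391 against 36.4 in WT 72 h, and on the monocyte side at 126 against 16.3 and 78.8 against 4, the last over 16 cells in each group. On the monocyte side of CCR2 KO at 72 h, with 17 cells in each group, it was not seen for Ly6a, at 47.8 against 58.1 CPM. Plac8 was higher in ISG-high cells on both sides in all 4 libraries, from a log2 ratio of 1.14 (1.03 to 1.24) on the Mφ side of WT 72 h to 3.32 (2.91 to 3.76) on that of CCR2 KO 24 h. Ly6c2 in WT at 72 h, whose whole-class interval included both directions, was higher in ISG-high cells within each side. On the monocyte side it was at 267 against 28 CPM, a log2 ratio of 3.25 (2.12 to 4.63), over 16 cells in each group. On the Mφ side it was at 21.4 against 9.65 CPM, a log2 ratio of 1.15 (0.59 to 1.73).

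In neutrophil-like cells Plac8 was at 1378 against 475 CPM in WT 24 h, 1173 against 200.0 in CCR2 KO 24 h, 434 against 209 in WT 72 h and 259 against 103 in CCR2 KO 72 h. Ly6c2, Ly6a and Ly6e were likewise higher in ISG-high cells in all 4 libraries, but in WT at 72 h, with 63 cells in each group and no ISG-low cell holding a UMI of the list, the intervals of all of these 3 ratios included 0. Ly6g behaved differently, at 49.1 against 108 CPM and 29.6 against 46.2 at 24 h and at 118 against 8.04 and 224 against 96.1 at 72 h, in WT and CCR2 KO. In WT at 72 h, where the whole class held 26 Ly6g UMIs, the log2 ratio was 3.88 with a wide interval (1.24 to 9.25). Median depth there was 2861 UMIs in ISG-high and 1916 in ISG-low cells. In CCR2 KO at 72 h, 162 of the 191 ISG-low cells held no UMI of the list, and median depth was 4267 UMIs in ISG-high and 2594 in ISG-low cells. The list itself was lower at 72 h in neutrophil-like cells: of 12 genes tested, 10 were 2-fold or more lower and 1 higher in WT, with a median log2 ratio of -2.01, and all 12 were lower in CCR2 KO, with a median of -1.85. Of all genes tested, 31.1% in WT and 21.2% in CCR2 KO were past the fold in this comparison, in either direction.

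Between genotypes the list differed less. In neutrophil-like cells 1 of 12 genes was 2-fold or more higher in CCR2 KO at 24 h and 3 of 9 at 72 h, none was lower, and the medians were 0.09 and 0.50. In monocyte/Mφ-like cells none of 11 was past the fold at 24 h and 1 of 7 was lower at 72 h, with medians of -0.59 and -0.21, and over time 7 of 11 were lower in WT and 3 of 8 in CCR2 KO. The monocyte genes used for the split had 2 of 7 lower and none higher in CCR2 KO at 24 h, with a median of -0.75, and 2 lower and 2 higher at 72 h, with a median of 0.04. Over time 4 of 7 were lower in WT and 2 of 7 in CCR2 KO. Of all genes tested between genotypes, 7.22% at 24 h and 2.34% at 72 h were past the fold in neutrophil-like cells. In monocyte/Mφ-like cells these shares were 4.2% and 7.55%, and over time 13.9% in WT and 12% in CCR2 KO. The counts in such short lists are therefore descriptions only.

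Of 34 other genes of the Ly6 and urokinase receptor family, 12 were in the tables, and neither of the 2 relatives of Plac8 was. Only 4 reached 50 CPM in a class of at least 50 cells. Plaur, the urokinase receptor, was at 151, 527, 76.1 and 74.8 CPM in monocyte/Mφ-like cells, and at 354, 821, 652 and 551 in neutrophil-like cells, so that CCR2 KO at 24 h was highest in both classes, unlike Ly6c2, Plac8 and Ly6e in monocyte/Mφ-like cells. Ly6i, which lies between Ly6e and Ly6a, was at 99.6, 93.7, 14.7 and 30.5 CPM in neutrophil-like cells and thus higher at 24 h, as Ly6c2 was. Ly6d, known from early B cells, was at 1955 CPM (1819 to 2098) over the 58 B-like cells. Ly6g5b was at 63.8 CPM (43 to 91.1) in T-like cells of CCR2 KO at 24 h.

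Genes with the most similar pattern were sought over the 10 class-and-library sums of at least 50 cells, which are the 4 of monocyte/Mφ-like, the 4 of neutrophil-like and 2 of T-like cells, by Pearson correlation of log2(CPM + 10). These sums share libraries and differ in depth, so the values are descriptions. Ly6g was closest to Gm5483, Mrgpra2a, Stfa2l1, Retnlg and Soat2 (r of 0.979 to 0.991), and Ly6a to H2-T22, Stim1, Abca2, Nsd1 and Flt3l (0.955 to 0.972). Ly6e was closest to Wls, Ifi27l2a, Gbp3, Ifi209 and Epsti1 (0.869 to 0.912), Ly6c2, of which 4 genes are given, to Ifi47, Sp100, Parp9 and Zbp1 (0.799 to 0.833) and Plac8 to Sppl2a, Diaph2, Tor1aip1, Chil3 and Saa3 (0.869 to 0.907). Zbp1 is on the list of interferon-stimulated genes, Retnlg on that of granule genes and Chil3 on that of monocyte genes.

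Ly6c2 and Plac8 were often found in the same cell. Among monocyte/Mφ-like cells thinned to 1000 UMIs, 103 of the 139 cells with Ly6c2 in WT 24 h also held Plac8, that is 74.1%, where 58.1% of all cells held it. The corresponding shares were 81.8% of 11 cells in CCR2 KO 24 h, 68.4% of 19 in WT 72 h and 85.7% of 7 in CCR2 KO 72 h, against 31.7%, 24.6% and 18.4% of all cells. Conversely, 13.6%, 12.7%, 5.78% and 20% of the cells with Plac8 held Ly6c2.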

How the data were processed

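CD45+ cells of the muscularis were captured with the 10x v3 3′ kit in 4 libraries, 1 per group. The deposited tables hold whole-number UMI counts per gene and cell, which the authors made with Cell Ranger 3.0.2 on GRCm38/mm10, and Seurat is named in the submitters' processing notes. The files hold no cell with fewer than 250 genes or with over 10% mitochondrial UMIs.

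Members and gene lists were chosen with earlier results of these data known. A cell was placed in a class when the mean of its 3 highest scaled markers was at least 0.3 and led the next class by 0.1, limits that were set after the marker distributions had been seen. Doublets were not removed: Scrublet called 11 of 5811 cells (0.189%), and was therefore not used. Counts were summed per class and library and divided by the total (CPM), with exact Poisson intervals, exact conditional binomial intervals of ratios and exact Clopper-Pearson intervals of shares, all for counting error only. Besides the 5 members, genes were named when a family gene reached 50 CPM in a class of at least 50 cells or was among the 5 genes most correlated with a member. A gene that met this rule is not reported here. The motifs were chosen after values were seen. Of the members, Ly6a and Ly6e had no promoter entry and the other 3 were matched. Python 3.11.15, NumPy 2.4.6, SciPy 1.17.1, pandas 2.3.3, Scanpy 1.11.5 and leidenalg 0.10.2 were used.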

Additional observations from a re-analysis of the deposited data

Results flagged for a closer look

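Over the whole monocyte/Mφ-like and neutrophil-like classes, the ratio of 2 libraries had opposite signs in the 2 matched comparisons in 4 cases. In these, both counting intervals were away from 0. Other classes, and parts of a class, are not counted here. Each group is 1 library, and the difference between the ratios was not tested. Ly6c2 in monocyte/Mφ-like cells differed between CCR2 KO and WT by a log2 ratio of -1.13 at 24 h and 1.93 at 72 h, and between 72 h and 24 h by -2.58 in WT and 0.48 in CCR2 KO. The last of these was not stable, at 0.067 (-0.21 to 0.34) with Leiden clusters. Plac8 in the same cells differed between the genotypes by -0.96 at 24 h and 0.30 at 72 h. Ly6g in neutrophil-like cells differed by -0.73 at 24 h and 1.52 at 72 h. Within parts of a class some of these directions changed. At 72 h CCR2 KO was below WT for Plac8 on both sides of the split and for Ly6c2 on the Mφ side. At 24 h the Ly6g ratio was 0.38 (-0.06 to 0.84) within granule-gene cells.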

How the results depend on the processing

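Of the class-level log2 ratios whose interval excluded 0, all kept their direction under every alternative run, except those of 72 h to 24 h in CCR2 KO monocyte/Mφ-like cells for Ly6c2 and Ly6e with equal weights and for Plac8 with at most 5% mitochondrial UMIs. The causes were not tested. No paired analysis was possible because each group is 1 library, no replicate could be left out, and the planned removal of cells called by Scrublet was not run because it called 0.189% of cells. In monocyte/Mφ-like cells, ratios of CCR2 KO to WT at 72 h moved beyond their counting interval as follows. For Ly6c2 the ratio was 1.42 with Leiden clusters, 2.31 with at most 5% mitochondrial UMIs and 1.67 without the highest doublet scores. With every cell weighted equally it was 1.5. For Plac8 these settings gave 0.073, 1.08, 0.13 and 0.076, with 0.14 under a larger lead of the best class and 0.22 under median-of-ratios scaling. Leaving out the highest doublet scores of each library took out 348 of 5811 cells, and was added after seeing the data. Ly6a was at -1.41 with at most 5% mitochondrial UMIs, -1.59 with equal weights and -0.84 with the larger lead, and Ly6e at -0.66 with equal weights and -0.48 with median-of-ratios scaling. At 24 h only Ly6e moved, to -0.56 with equal weights.

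For 72 h against 24 h in WT, Plac8 was at -1.69 with equal weights and -1.66 with median-of-ratios scaling. Ly6a was at 0.60 with Leiden clusters, 0.54 with at most 5% mitochondrial UMIs, 0.32 with equal weights and 0.53 with the larger lead. Ly6e was at 0.17 without the highest doublet scores, 0.17 with the larger lead, 0.10 with equal weights and 0.058 with median-of-ratios scaling. In CCR2 KO, Ly6c2 was at 0.067 with Leiden clusters, 0.96 with at most 5% mitochondrial UMIs and -0.067 with equal weights. Plac8 was at -0.50, 0.44 and -0.59 in these, at -0.48 without the highest doublet scores, -0.44 with the larger lead and -0.50 with median-of-ratios scaling. Ly6a was at -0.64 with equal weights and 0.41 with the larger lead, and Ly6e at 0.30 with at most 5% mitochondrial UMIs, -0.0017 with equal weights and 0.035 with median-of-ratios scaling. Ly6g in neutrophil-like cells of CCR2 KO was at 1.28 with equal weights and 1.19 with median-of-ratios scaling. Under that scaling the time ratios of Plac8 in both genotypes and of Ly6c2 in CCR2 KO also left their intervals there, as given above. Other moves in neutrophil-like cells are not listed here.

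With no minimum level, genes past the fold in monocyte/Mφ-like cells went from 136 to 2181, 261 to 2596, 480 to 3581 and 421 to 2708, and in neutrophil-like cells from 186 to 2441, 75 to 1908, 980 to 3466 and 658 to 4271, for CCR2 KO against WT at 24 h and 72 h and for time in WT and CCR2 KO. Depth limits Ly6g in WT neutrophil-like cells at 72 h, with 26 UMIs, and Ly6c2 there, with 9.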
